A study of Homo sapiens with 6 samples.

Results

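The genes described here are 37 members of the antigen presentation machinery and the ligands read by natural killer (NK) and T cells. They were chosen by name: class I and class II HLA chains, the peptide loading machinery, the immunoproteasome, ligands of the NK receptor NKG2D and 3 surface ligands that restrain immune cells. All 37 names were found once among the 57819 genes of the deposited table, and 29 had enough reads to be tested. The cells were IMR90 ER:Ras, an established human lung fibroblast line whose Ras oncogene is joined to part of the estrogen receptor and is switched on by 4-hydroxytamoxifen (4OHT), so that the cells enter senescence. Every library came from cells given 200 nM 4OHT for 3 days. The control group received a scrambled siRNA and the knockdown group an siRNA against sin-lncRNA, a long noncoding RNA of senescent cells (n = 3 libraries each, polyA RNA). Vehicle-treated cells were not analysed here, and nothing in the labels says whether the 3 libraries of a group came from separate cultures, so the p-values measure the spread between these libraries.

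Class I molecules are displayed by nearly all nucleated cells. The proteasome cuts cytosolic proteins, the TAP transporter carries the peptides into the endoplasmic reticulum, aminopeptidases trim them, and the loading complex places them on a heavy chain paired with beta-2 microglobulin for CD8 T cells to read. Class II molecules present endocytosed material to CD4 T cells and are largely restricted to professional antigen-presenting cells unless interferon-gamma induces them. NKG2D ligands are stress-induced surface proteins that mark a cell for NK killing, and senescent fibroblasts are a known target of such clearance.

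The targeted RNA was low in the knockdown libraries: sin-lncRNA stood at 3.70, 4.73 and 4.09 reads per 1000000 reads (RPM) in control replicates 1, 2 and 3 and at 0.493, 0.640 and 0.534 in knockdowns, a log2 fold change of -2.86 (standard error 0.18, limma adjusted p = 7.9e-07). Reads in genes ran from 30271192 to 50913672 per control library and from 22117324 to 27882280 per knockdown library, so depth and group cannot be told apart. Fibroblast markers were abundant in every library, with a summed level of 40133 to 41957 RPM over 9 genes in controls and 40161 to 41615 in knockdowns. Single markers moved within that sum: 4 of the 9 were called higher and 5 lower, where 17.5% and 23.5% of all genes tested were. COL1A1 stood at 54.4% and FN1 at 119% of the control mean. FN1 made up the largest part of the sum, with a mean of 25152 RPM in controls and 29811 in knockdowns. Of 10 leukocyte markers, 2 had enough reads to be tested, MS4A1 was at 0 in every library, and their sum was 1.83 to 2.33 RPM in controls and 0.852 to 1.92 in knockdowns. Endothelial markers summed to 1.67 to 1.83 RPM over 2 genes in controls and 2.20 to 2.60 in knockdowns, and epithelial markers to 24.3 to 25.9 over 5 genes and 26.8 to 29.6, with KRT18 called higher (log2 fold change 0.35) and KRT8 lower (-0.38). These 2 sums were higher in each knockdown library than in each control library, and their part in the results was not tested. In bulk RNA, fewer cells of a type and less RNA per cell cannot be told apart.

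Of the 29 members tested, 13 were higher and 4 lower in the knockdown (limma on log2 CPM, Benjamini-Hochberg adjusted p under 0.05 over all 19048 genes tested). Over all genes tested 41% were called, 17.5% higher and 23.5% lower. The median log2 fold change was 0.21 over the 29 members and -0.04 over all genes tested. The members that rose lay in peptide loading (6 of 6 tested), class I heavy chains (2 of 5), class II (2 of 3 tested), the immunoproteasome (2 of 5) and the checkpoint ligands (1 of 3). The members that fell were NLRC5, PSME2, MICA and MICB. Knockdown and control libraries did not overlap for 12 members that were above and 4 that were below, against 22.6% and 28.5% of all genes tested (51.1% in either direction). Without knockdown replicate 2 the number of members called higher was 8, and without knockdown replicate 3 it was also 8; the 4 lower calls were made without any one library.

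**Figure D1:**
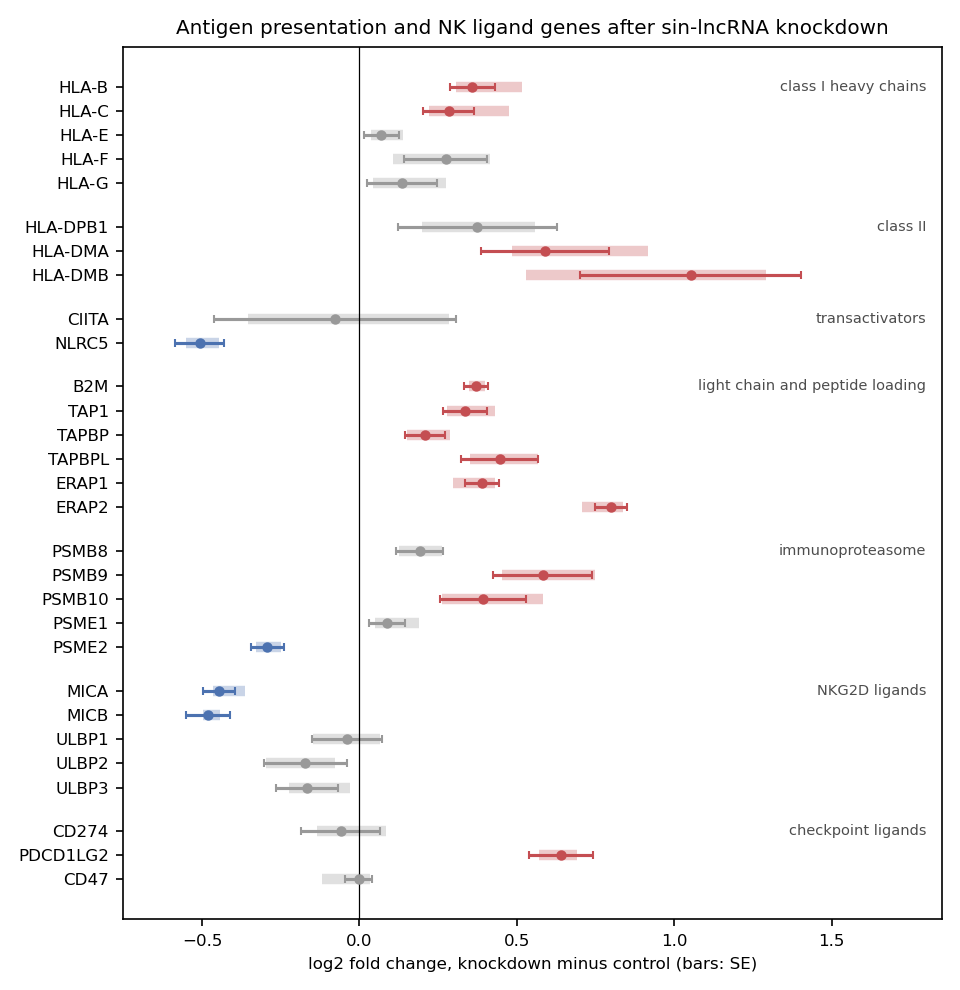
Log2 fold change of each of the 29 tested members (x axis, knockdown minus control; points with SE bars), grouped by role. Red marks an adjusted p under 0.05 and higher, blue lower, grey not past the threshold; the pale band spans the 18 other fits. All 6 loading genes lie right of 0 and MICA, MICB, NLRC5 and PSME2 left of it with their whole band.

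RefSeq promoter windows (GRCh38.p14) were found for 32 of the 37 members; HLA-E, HLA-DRA, CIITA, NLRC5 and PDCD1LG2 were not matched. The 250 bases before each start were searched on both strands for the core of the interferon-stimulated response element (GAAA, any 2 bases, GAAA). It was present for 9 of the 32 members (28.1%) and for 3.71% of the 27303 genes in the table. The 9 were HLA-F, B2M, TAP1, TAP2, TAPBP, ERAP2, PSMB10, PSME2 and CD274. The stretches below are shown because they carry the same letters in front of genes that went different ways; capitals mark the match, or its reverse complement, and 2 overlapping matches run together.
B2M, chr15:44711366-44711395 (+): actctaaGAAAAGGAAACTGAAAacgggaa
TAP1, chr6:32853816-32853845 (-): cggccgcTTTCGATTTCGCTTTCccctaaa
TAPBP, chr6:33314079-33314105 (-): tttggagGAAAGTGAAAGTGAAAggag
PSMB10, chr16:67936852-67936881 (-): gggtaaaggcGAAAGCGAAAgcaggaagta
PSME2, chr14:24146619-24146648 (-): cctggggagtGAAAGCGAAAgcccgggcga
CD274, chr9:5450327-5450356 (+): tgacatgTTTCACTTTCTGTTTCatttcta
B2M, TAP1, TAPBP and PSMB10 were higher in the knockdown, PSME2 was lower, and CD274 did not pass the threshold. A match is a description of letters and not a measured binding site.

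The inverted CCAAT box ATTGG was found for 19 of 32 members (59.4%) and 37.0% of all genes, and the CRE core TGACG for 13 of 32 (40.6%) and 24.9%. The GAS letters TTCNNNGAA were found for 4 of 32 (12.5%) and 8.09%. The kappaB site, searched as 1 fixed sequence, was found for B2M and TAP1 (6.25%), against 0.216% of all genes. In 0 of the 32 members did matches of different motifs share bases. HLA-B, HLA-C, HLA-DMA, HLA-DMB, ERAP1 and PSMB9, all called higher, held ATTGG and no interferon-response core in the window. So did HLA-G, HLA-DPB1 and ULBP2, which had no call. The same holds for MICA and MICB, a pair of neighbouring paralogs that fell together, with ATTGG (capitals) in a similar stretch of promoter.
MICA, chr6:31403477-31403560 (+): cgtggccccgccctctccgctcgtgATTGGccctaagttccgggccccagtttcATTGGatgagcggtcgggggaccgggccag
MICB, chr6:31498023-31498077 (+): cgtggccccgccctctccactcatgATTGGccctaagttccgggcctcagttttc

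Levels per length set the members far apart. Per kilobase of exon (all exons of the gene merged, from GENCODE 29 by gene ID), the control libraries held 83.3 ± 0.935 RPM per kilobase of B2M (SD, n = 3), 57.9 ± 4.49 of HLA-C, 41.2 ± 1.77 of HLA-E and 37.9 ± 2.59 of HLA-B. HLA-E and HLA-B differed by less than the sum of their SDs. TAPBP, PSME1 and MICA followed at 27.0, 22.1 and 20.9, so MICA was the most abundant NKG2D ligand, ahead of ULBP3 at 6.66, MICB at 4.79, ULBP2 at 4.09 and ULBP1 at 2.88. NLRC5 stood at 1.55 and CIITA at 0.0237. The merged length counts the exons of all annotated transcripts, used in these cells or not.

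**Figure D2:**
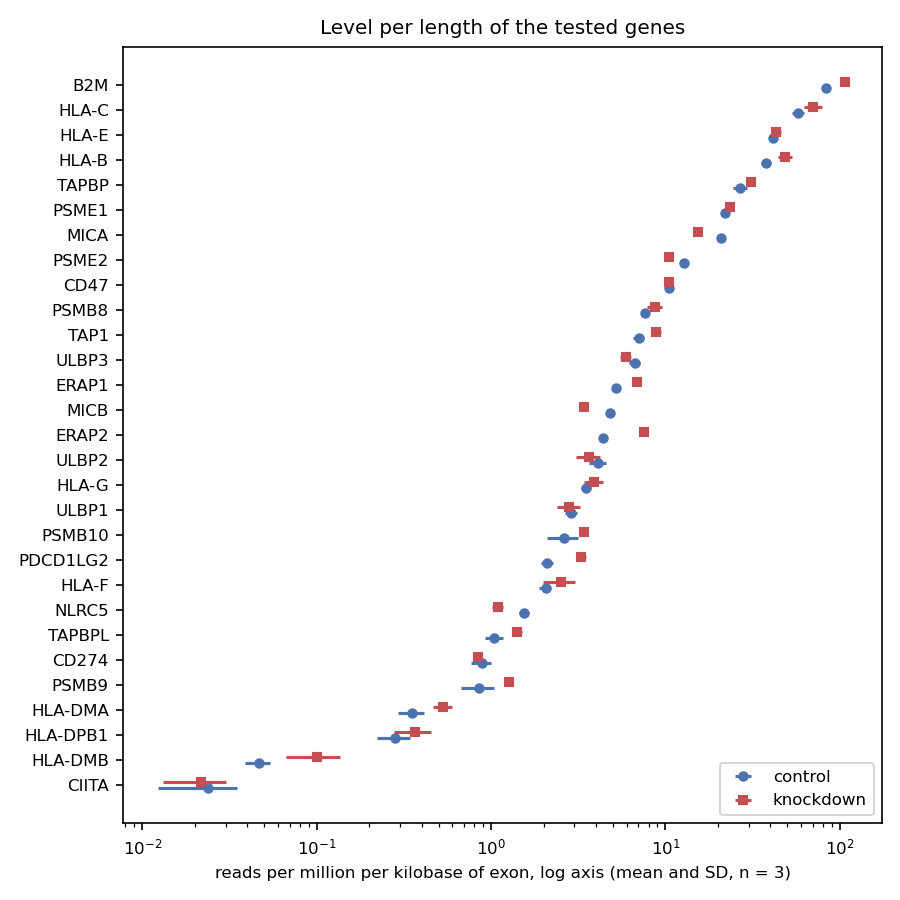
Level of the 29 tested members in RPM per kilobase of exon (x axis, log scale; points are the mean of 3 libraries, bars the SD), controls in blue circles and knockdowns in red squares, ordered by the control level. B2M and the class I heavy chains HLA-C, HLA-E and HLA-B lie at the top, and the class II genes and CIITA at the bottom.

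Among the class I heavy chains, the chains that bind peptide and face T and NK cells, HLA-B and HLA-C rose. HLA-B (ENSG00000234745.5, chr6:31321649-31324965, minus strand, hg19 coordinates as in the table) stood at 117, 107 and 123 RPM in control replicates 1, 2 and 3 and at 132, 157 and 157 in knockdown replicates 1, 2 and 3. Every knockdown library was above every control, with knockdown replicate 1 the nearest to them. The log2 fold change was 0.36 (standard error 0.07, limma adjusted p = 0.0025; exact permutation p = 0.1, the smallest that 3 against 3 allow).

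HLA-C went from 145 ± 11.2 to 177 ± 20.1 RPM (SD, n = 3), with a log2 fold change of 0.28 (standard error 0.08, limma adjusted p = 0.017), and its groups overlapped. Without knockdown replicate 2 it was 0.23 (adjusted p = 0.067), without knockdown replicate 3 it was 0.24 (adjusted p = 0.080), and after GC and length correction it was 0.47 (adjusted p = 6.8e-07). HLA-E, whose product shows leader peptides of other class I chains to the NK receptor NKG2A, was at 122 ± 5.26 and 129 ± 8.13 RPM (log2 fold change 0.07, standard error 0.06, limma adjusted p = 0.34). HLA-F and HLA-G, nonclassical chains, had log2 fold changes of 0.27 (standard error 0.13, limma adjusted p = 0.12) and 0.14 (standard error 0.11, limma adjusted p = 0.36). HLA-F reached 13.6 RPM in knockdown replicate 3 and lay between 8.26 and 9.78 in the other 5 libraries. HLA genes vary between people and resemble each other, and how reads that fit several of them were counted was not given in the sources used here, so their levels are uncertain.

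In the group of the light chain and the loading machinery, 6 of the 6 tested genes of 7 were called higher, with log2 fold changes from 0.21 to 0.80, where 17.5% of all genes tested were higher. B2M encodes beta-2 microglobulin, the light chain shared by all class I molecules. B2M (ENSG00000166710.13, chr15:45003675-45011075, plus strand) stood at 501, 512 and 507 RPM in controls and 635, 668 and 663 in knockdowns. The controls lay within a narrow band and every knockdown library was above it. The log2 fold change was 0.37 (standard error 0.04, limma adjusted p = 3.1e-05).

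TAP1, a subunit of the peptide transporter (ENSG00000168394.9, chr6:32812986-32821755, minus strand), was at 36.2, 31.2 and 34.0 RPM in controls and 39.5, 44.4 and 44.0 in knockdowns. Its groups did not overlap, and the log2 fold change was 0.33 (standard error 0.07, limma adjusted p = 0.0028). TAP1 lies wholly within the span of PSMB9 on the opposite strand, and the strand setting of the counting is not given in the sources used here. The member row TAP2 (ENSG00000250264.1, chr6:32781544-32806599) held 0 reads in every library. It spans HLA-DOB and a second row of the same symbol (ENSG00000204267.9, chr6:32789610-32806557), which held 649 to 1108 reads per library. This second TAP2 row, no member by the naming rule and named after its values were seen, was at 23.5, 24.1 and 22.0 RPM in controls and 29.1, 28.9 and 27.4 in knockdowns, a log2 fold change of 0.30 (standard error 0.06, limma adjusted p = 0.0026). The TAP2 row at 0 is therefore no sign that the transporter's second subunit was without reads.

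The aminopeptidases that trim peptides in the endoplasmic reticulum held the largest rise of the loading genes. ERAP2 (ENSG00000164308.12, chr5:96211643-96255420, plus strand) was at 31.9, 33.6 and 31.5 RPM in controls and 55.1, 56.8 and 56.8 in knockdowns. The groups were wide apart, at 174% of the control mean in knockdowns, with a log2 fold change of 0.80 (standard error 0.05, limma adjusted p = 9.9e-07). ERAP1 (ENSG00000164307.8, chr5:96096521-96143803, minus strand) was at 40.9, 42.5 and 40.9 RPM in controls and 53.7, 51.6 and 57.6 in knockdowns, a log2 fold change of 0.39 (standard error 0.05, limma adjusted p = 0.00024). For both genes every knockdown library was above every control. ERAP1 overlaps CAST on the opposite strand, whose log2 fold change was -0.25.

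TAPBPL, a tapasin-related peptide editor (ENSG00000139192.7, chr12:6560856-6575683, plus strand), was at 3.64, 2.90 and 3.44 RPM in controls and 4.21, 4.65 and 4.67 in knockdowns. All 3 knockdown libraries were above all 3 controls, and the log2 fold change was 0.45 (standard error 0.12, limma adjusted p = 0.013). TAPBPL had 87 to 173 reads per library. It shares 4281 bases with VAMP1 on the opposite strand, which had 189 to 479 reads and a log2 fold change of -0.29. TAPBP, which encodes tapasin and bridges TAP to the class I heavy chain, went from 136 ± 12.4 to 157 ± 6.90 RPM with overlapping groups, a log2 fold change of 0.21 (standard error 0.06, limma adjusted p = 0.022). The TAPBP call was lost without control replicate 2 (0.15, adjusted p = 0.064), control replicate 3 (0.19, 0.081), knockdown replicate 2 (0.18, 0.078) or knockdown replicate 3 (0.20, 0.076).

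**Figure D3:**
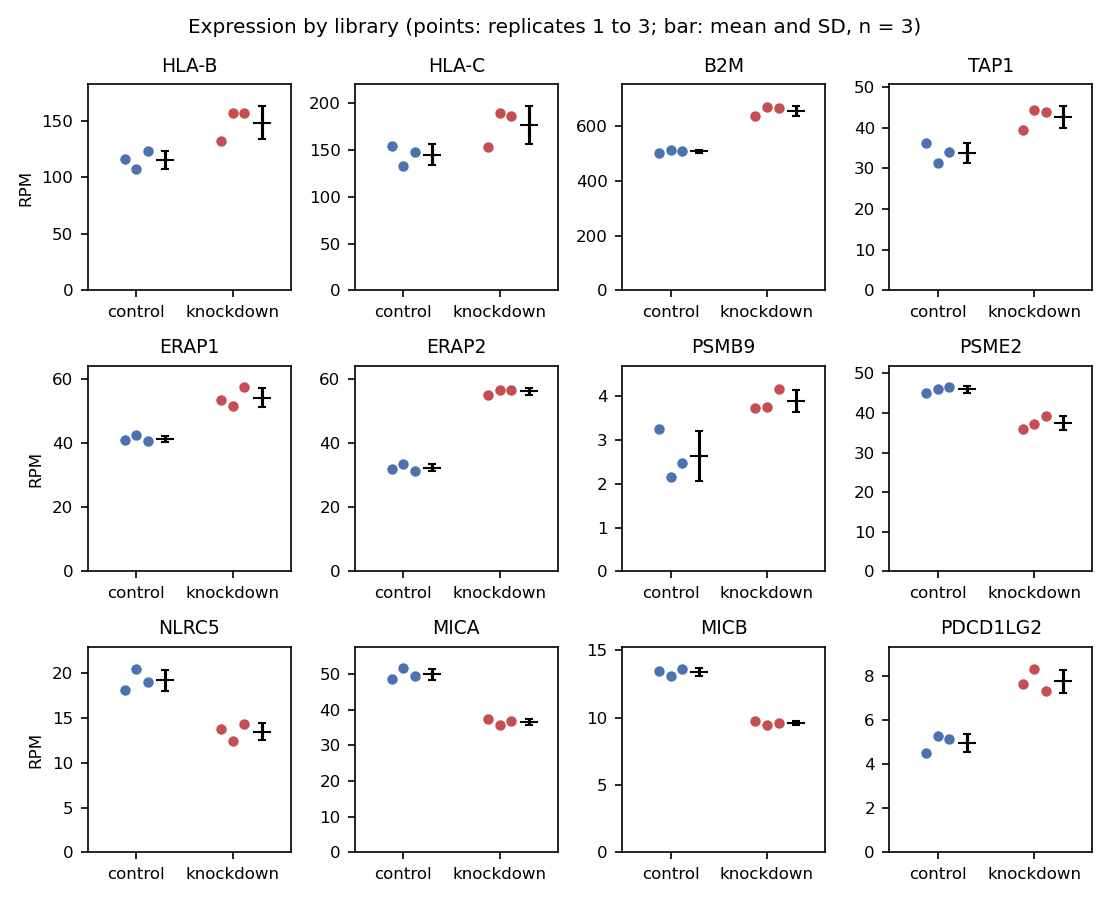
Expression in each library of 12 members in RPM (y axes start at 0; points are replicates 1 to 3 of each group from left to right, black bars the mean and SD, n = 3). B2M, TAP1, ERAP1, ERAP2, PSMB9, HLA-B and PDCD1LG2 are higher in each knockdown library than in each control, HLA-C overlaps, and PSME2, NLRC5, MICA and MICB are lower in each.

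The immunoproteasome members moved in both directions. PSMB8, PSMB9 and PSMB10 encode the 3 catalytic subunits that interferon-gamma exchanges into the proteasome, and PSME1 and PSME2 encode the alpha and beta subunits of its PA28 activator cap. PSMB9 (ENSG00000240065.3, chr6:32811913-32827362, plus strand) was at 3.26, 2.16 and 2.46 RPM in controls and 3.72, 3.76 and 4.17 in knockdowns. Its log2 fold change was 0.58 (standard error 0.16, limma adjusted p = 0.012), and without knockdown replicate 3 it was 0.53 (adjusted p = 0.052). PSMB9 overlaps TAP1 and PSMB8 on the opposite strand, and each has more reads than PSMB9.

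PSMB10 (ENSG00000205220.7, chr16:67968405-67970990, minus strand) was at 5.90, 4.00 and 4.69 RPM in controls and 6.32, 6.66 and 5.95 in knockdowns. Control replicate 1 nearly reached the lowest knockdown library. PSMB10 shares 1516 bases with CTC-479C5.12 on the same strand, which had 24 to 47 reads per library. CTC-479C5.12 was itself called higher, with a log2 fold change of 0.74 (limma adjusted p = 0.043), and its part in the PSMB10 reads was not tested. The log2 fold change of PSMB10 was 0.39 (standard error 0.14, limma adjusted p = 0.039). It lost its call in 5 of the 6 fits that left out a library: 0.26 without control replicate 2 (adjusted p = 0.125), 0.38 without control replicate 3 (0.110), 0.39 without knockdown replicate 1 (0.083), 0.35 without knockdown replicate 2 (0.108) and 0.44 without knockdown replicate 3 (0.065). PSMB8 went from 22.8 ± 0.666 to 26.0 ± 2.45 RPM (log2 fold change 0.19, standard error 0.07, limma adjusted p = 0.058). It passed the threshold in 7 of the 18 other fits. Among them were library totals (0.21, limma adjusted p = 0.041), quantile normalization (0.24, 0.020) and the fit without knockdown replicate 1 (0.26, 0.013).

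PSME2 (ENSG00000100911.9, chr14:24612574-24616779, minus strand) went from 46.0 ± 0.778 to 37.5 ± 1.69 RPM (SD, n = 3), with every knockdown library below every control. Its log2 fold change was -0.29 (standard error 0.05, limma adjusted p = 0.0012). PSME1 was at 39.4 ± 0.975 and 41.8 ± 2.43 RPM, which is a log2 fold change of 0.09 (standard error 0.06, limma adjusted p = 0.26), and the difference between the 2 subunits was not tested. In the standard proteasome list (PSMB5, PSMB6, PSMB7, PSME3, PSME4 and POMP), 2 of 6 genes fell and 0 rose, with a median log2 fold change of -0.09. Of all genes tested 23.5% fell and 17.5% rose (41% in either direction). The counterpart of PSMB9 in the standard particle, PSMB6, was at 112 ± 2.06 RPM in controls and 94.4 ± 3.61 in knockdowns, a log2 fold change of -0.25 (standard error 0.05, limma adjusted p = 0.0013).

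Of the 2 transactivators, NLRC5 fell and CIITA did not pass the threshold. NLRC5 is the transactivator that drives class I, B2M and TAP1 promoters in lymphoid and interferon-treated cells. NLRC5 (ENSG00000140853.11, chr16:57023397-57117443, plus strand) was at 18.1, 20.5 and 19.0 RPM in controls and 13.8, 12.4 and 14.3 in knockdowns. All 3 knockdown libraries were below all 3 controls, and NLRC5 was the only member called and at least 0.5 lower, as were 7.65% of all genes tested. The log2 fold change was -0.51 (standard error 0.08, limma adjusted p = 0.00045). CIITA, the class II transactivator, had 7 to 26 reads per library and a log2 fold change of -0.08 (standard error 0.38, limma adjusted p = 0.89). A list of 11 genes held the interferon-gamma pathway and other inducers of class I, STAT2 and IRF9 among them. Of these 11, 4 rose and 0 fell, with a median log2 fold change of 0.14. Of all genes tested 17.5% rose and 23.5% fell (41% in either direction). IFNGR1, the ligand-binding receptor chain, had a log2 fold change of 0.40 (standard error 0.07, limma adjusted p = 0.00066). IRF1, a transcription factor that binds class I promoters, went from 24.3 ± 1.34 to 30.9 ± 2.03 RPM (log2 fold change 0.35, standard error 0.07, limma adjusted p = 0.0020). JAK1, a kinase of the receptor, had a log2 fold change of 0.21 (standard error 0.04, limma adjusted p = 0.0039). Its other kinase JAK2 and its second chain IFNGR2, named after their values were seen, did not pass the threshold. Their log2 fold changes were -0.04 (limma adjusted p = 0.74) and 0.04 (limma adjusted p = 0.59).

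Class II chains were near or at the floor. HLA-DQA1 and HLA-DQB1 had 0 reads in every library, and HLA-DRA, HLA-DRB1, HLA-DPA1 and HLA-DOA had at most 1 read in any library. Where no read was counted, up to 3 could have been missed by counting error alone, which is 0.0596 to 0.134 RPM depending on the library. CD74, the invariant chain that guards the class II groove, had 3 to 15 reads and was not tested. HLA-DPB1 had 18 to 47 reads and a log2 fold change of 0.37 (standard error 0.25, limma adjusted p = 0.26), which ran from 0.20 without control replicate 2 to 0.56 without knockdown replicate 2.

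The pair of chaperone chains that exchange peptides on class II molecules, HLA-DMA and HLA-DMB, were called higher at very low levels. HLA-DMA (ENSG00000204257.10, chr6:32916390-32936871, minus strand) was at 0.764, 1.07 and 0.854 RPM in controls and 1.52, 1.28 and 1.21 in knockdowns, on 26 to 43 reads per library. The log2 fold change was 0.59 (standard error 0.20, limma adjusted p = 0.038). HLA-DMA shares 435 bases with BRD2 on the opposite strand, which had a log2 fold change of -0.02. Among the fits that left out a library, the HLA-DMA call was kept only without control replicate 2; the values were 0.48 without control replicate 1 (adjusted p = 0.109), 0.56 without control replicate 3 (0.112), 0.49 without knockdown replicate 1 (0.118), 0.62 without knockdown replicate 2 (0.066) and 0.66 without knockdown replicate 3 (0.055). With all libraries thinned to the smallest total, by a random draw of reads that was not repeated, HLA-DMA was at 0.91 (limma adjusted p = 0.011).

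HLA-DMB (ENSG00000242574.4, chr6:32902406-32908847, minus strand) was at 0.176, 0.233 and 0.238 RPM in controls and 0.448, 0.640 and 0.321 in knockdowns, on 6 to 15 reads per library. The log2 fold change was 1.05 (standard error 0.35, limma adjusted p = 0.033). It was 0.53 (limma adjusted p = 0.39) with all libraries thinned to the smallest total in the same random draw. It also missed the threshold without control replicate 1 (0.92, adjusted p = 0.088), control replicate 3 (1.11, 0.069), knockdown replicate 1 (1.05, 0.067) or knockdown replicate 2 (0.81, 0.125).

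Genes that process class II cargo or drive its promoters form a list of 12, of which 11 were tested; IFI30, a lysosomal thiol reductase, had at most 1 read in any library. Of the 11, 7 rose and 2 fell, with a median log2 fold change of 0.28, where 17.5% of all genes tested rose and 23.5% fell. LGMN, an asparagine-specific lysosomal protease, went from 5.56 ± 0.238 to 19.7 ± 0.767 RPM, which is a log2 fold change of 1.82 (standard error 0.08, limma adjusted p = 7.1e-08). CTSS, the cathepsin that degrades the invariant chain in antigen-presenting cells, went from 5.60 ± 0.469 to 11.3 ± 0.558 RPM, which is a log2 fold change of 1.01 (standard error 0.09, limma adjusted p = 1.2e-05). RFX5, the X-box factor shared by class I and class II promoters, rose to 136% of its control mean of 48.5 ± 2.03 RPM (log2 fold change 0.45). NFYC, a subunit of the CCAAT-binding factor, fell from 21.9 ± 0.739 to 17.5 ± 0.527 RPM (log2 fold change -0.32). The other subunits of that factor, added after their values were seen, were called higher, NFYA at 0.29 (limma adjusted p = 0.0015) and NFYB at 0.28 (limma adjusted p = 0.013), and NFYB lost its call without knockdown replicate 3 (0.25, adjusted p = 0.056) and with all libraries thinned to the smallest total (0.23, 0.051). Of a list of 5 ER chaperones and the endosomal aminopeptidase LNPEP, 2 of 6 rose and 0 fell. Of all genes tested 17.5% rose and 23.5% fell (41% in either direction). PDIA3, the disulfide isomerase joined to tapasin, had a log2 fold change of 0.41 (standard error 0.04, limma adjusted p = 4.1e-05), and UGGT1, a folding sensor, had 0.21 (standard error 0.05, limma adjusted p = 0.0064).

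Of the 5 NKG2D ligands among the members, MICA and MICB fell and 3 ULBP genes did not pass the threshold. MICA (ENSG00000204520.8, chr6:31371356-31383092, plus strand) was at 48.5, 51.6 and 49.6 RPM in controls and 37.4, 35.8 and 36.7 in knockdowns. The groups were far apart relative to the spread within them, at 73.4% of the control mean in knockdowns. This was a log2 fold change of -0.45 (standard error 0.05, limma adjusted p = 5.4e-05). MICA lies wholly within HCP5 on the same strand, but HCP5 held only 2 to 7 reads per library.

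MICB (ENSG00000204516.5, chr6:31462658-31478901, plus strand) was at 13.5, 13.1 and 13.7 RPM in controls and 9.73, 9.43 and 9.62 in knockdowns. It fell to 71.6% of the control mean, a log2 fold change of -0.48 (standard error 0.07, limma adjusted p = 0.00029). ULBP1, ULBP2 and ULBP3, ligands of the same receptor encoded on the other arm of chromosome 6, had log2 fold changes of -0.04 (SE 0.11), -0.17 (SE 0.13) and -0.17 (SE 0.10), with limma adjusted p of 0.81, 0.33 and 0.20. Their groups overlapped, and a fall of the size seen for MICA was not tested against them. Reads per library ran from 104 to 488 over the 3 ULBP genes, and ULBP2 ran from -0.30 to -0.077 with 1 library left out.

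Further NKG2D ligands of the same gene cluster stood in the list of other ligands and are added here after their values were seen. RAET1G had 27 to 64 reads per library, stood at 148% of the control mean in knockdowns and was called higher with a log2 fold change of 0.57 (standard error 0.19, limma adjusted p = 0.029). RAET1G missed the threshold without control replicate 2 (0.44, adjusted p = 0.104), knockdown replicate 1 (0.57, 0.062) or knockdown replicate 3 (0.52, 0.092). RAET1L had a log2 fold change of -0.58 (standard error 0.27, limma adjusted p = 0.11), and RAET1E, at 3 to 6 reads per library, was not tested.

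Other ligands of NK and T cells went both ways: of 15 in the list 13 were tested, 5 rose and 3 fell, with a median log2 fold change of 0.06 (background over the table: 17.5% higher, 23.5% lower). ICAM1, the adhesion ligand of the integrin LFA-1, rose from 40.2 ± 0.764 to 91.8 ± 11.4 RPM, which is a log2 fold change of 1.18 (standard error 0.08, limma adjusted p = 1.0e-06). CD276, also called B7-H3, rose from 268 ± 13.5 to 428 ± 42.1 RPM (log2 fold change 0.67), and TNFRSF14, the herpesvirus entry mediator, from 1.40 ± 0.507 to 2.50 ± 0.0887 (0.90). The 2 ligands of the activating receptor DNAM-1 moved apart. PVR had a log2 fold change of -0.43 (standard error 0.06, limma adjusted p = 0.00021), from 102 ± 6.28 to 76.2 ± 4.35 RPM, while NECTIN2, listed as PVRL2 and named after its values were seen, had 0.40 (standard error 0.07, limma adjusted p = 0.0013), from 102 ± 5.15 to 135 ± 14.9 RPM. CLEC2B, the ligand of NKp80, had a log2 fold change of -0.41 (standard error 0.10, limma adjusted p = 0.0074).

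Among the proteases and regulators of surface ligands, 3 of 9 rose and 4 fell, with a median log2 fold change of 0.07 (background over the table: 17.5% higher, 23.5% lower). ADAM17 and ADAM10, metalloproteases known to shed MICA and MICB from cell surfaces, had log2 fold changes of 1.02 (standard error 0.05, limma adjusted p = 2.9e-07) and 0.72 (standard error 0.04, limma adjusted p = 3.9e-07). ADAM17 was at 28.8, 30.0 and 27.3 RPM in controls and 59.2, 57.6 and 58.3 in knockdowns, with no library of a group near the other. MMP14, another sheddase, named after its values were seen, went from 2524 ± 33.1 to 2048 ± 88.7 RPM, which is a log2 fold change of -0.30 (standard error 0.04, limma adjusted p = 0.00031). RNA levels of ligands and sheddases were measured, and surface protein was not.

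Of the 3 ligands that hold immune cells back, PDCD1LG2 was called higher and CD274 and CD47 did not pass the threshold. PDCD1LG2, which encodes the PD-1 ligand PD-L2 (ENSG00000197646.6, chr9:5510545-5571282, plus strand), was at 4.49, 5.26 and 5.15 RPM in controls and 7.62, 8.28 and 7.30 in knockdowns. It rose to 156% of the control mean, a log2 fold change of 0.64 (standard error 0.10, limma adjusted p = 0.00052). CD274, which encodes PD-L1 and lies close to PDCD1LG2 on chromosome 9, was at 3.26, 4.20 and 3.46 RPM in controls and 3.45, 3.37 and 3.56 in knockdowns. Its groups overlapped, with a log2 fold change of -0.06 (standard error 0.13, limma adjusted p = 0.74), and the difference between the 2 PD-1 ligands was not tested. CD47, the signal that restrains phagocytes, was at 84.6, 86.5 and 86.5 RPM in controls and 86.7, 85.9 and 84.4 in knockdowns, a log2 fold change of -0.0031 (standard error 0.04, limma adjusted p = 0.96). QPCTL, the enzyme that modifies CD47 so that it binds its receptor, fell from 16.3 ± 1.16 to 10.1 ± 0.193 RPM (log2 fold change -0.68, standard error 0.08, limma adjusted p = 4.6e-05). CMTM4, a stabiliser of PD-L1 at 25.9 ± 1.28 RPM in controls, had a log2 fold change of -0.34 (standard error 0.08, limma adjusted p = 0.0040). Its relative CMTM6, named after its values were seen, was at 190 ± 4.52 RPM in controls and did not pass the threshold (0.07, limma adjusted p = 0.21). MARCHF9, a ligase that removes class I molecules from the surface, had a log2 fold change of -0.55 (standard error 0.11, limma adjusted p = 0.0026).

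**Figure D4:**
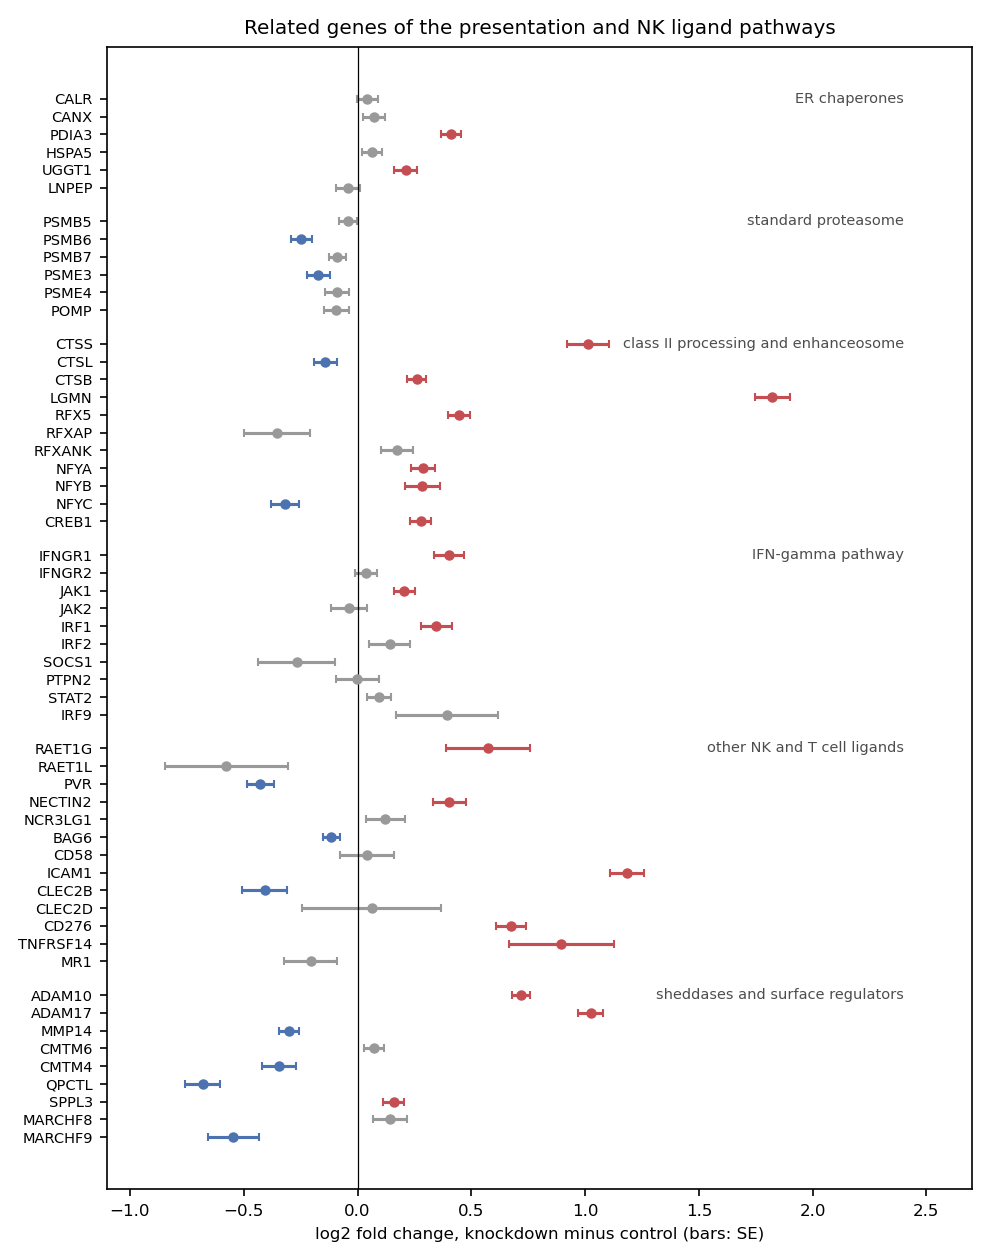
Log2 fold change of tested genes of the 6 related lists, 1 of them left out (x axis, knockdown minus control; points with SE bars); red and blue mark genes called higher and lower, grey those not past the threshold. LGMN, ICAM1, ADAM17 and CTSS lie farthest right, and QPCTL farthest left.

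Over the 6 related lists, 56 of 59 genes were tested, 21 rose and 11 fell, with a median log2 fold change of 0.07, beside 17.5% and 23.5% of all genes tested. Of these 32 calls 7 were lost in at least 1 of the 18 other fits, among them those of BAG6, CTSL, PSME3 and SPPL3, and 0 changed sign.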

How the data were processed

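RNA of 6 libraries was measured, 3 per group, all in 1 table whose column names give replicate and siRNA. In the knockdown names "si1" is followed by characters that no label mentions. Bowtie2, featureCounts and hg19 are named, per the submitters' processing notes; versions, strand setting and annotation are not given in the sources used here. The authors deposited log2 CPM values: undoing an offset of 0.5 reads gave whole reads for 100% of values (tolerance 0.001 reads). RPM (reads per 1000000) is the recovered reads scaled by the authors' effective library size, without the offset. Limma 3.58.1 (R 4.3.3, lmFit, eBayes with trend, group as sole term, two-sided) was run on the deposited log2 values of 19048 genes. These averaged 10 or more normalized reads per library, and Benjamini-Hochberg adjustment was over all of them. The same fit was run on simulated data with far fewer changed genes than were called here and a fixed spread. That run therefore does not give the error rate in these data. The offset shrinks fold changes of genes with few reads. It is the same number of reads in every library, so it weighs more in the smaller knockdown libraries. Such fold changes are thereby also shifted upward. The median log2 fold change over all genes was 0.075 without the filter on reads and -0.039 with it. Members, roles and related lists were chosen with earlier results of these data known. Members past the threshold by at least 0.3 on the log2 scale are given by library, others by means or ranges. CD274 and CD47, which did not pass the threshold, are also given by library, outside that rule. Of each related list up to 3 genes per direction are named. The 18 other fits covered pseudocounts, filters, scaling, thinning, voom, robust eBayes, a replicate block, a library left out and, added after seeing the data, GC and length correction. Thinning drew reads at random and was not repeated, so thinned values of genes with few reads also carry the error of that draw. Reads per gene carry counting error, and PCR copies are not independent molecules. Lengths came from GENCODE 29 and promoters from RefSeq (GRCh38.p14), matched by ID or symbol, with no coordinates converted. Of the related lists, 1 gene is counted in its list and not reported here.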

Additional observations from a re-analysis of the deposited data

How the results depend on the processing

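Of the 17 members called, 11 kept sign and call in the 18 other fits, 6 lost the call in at least 1 and 0 changed sign. The 4 lower calls (NLRC5, PSME2, MICA, MICB) and those of HLA-B, B2M, TAP1, TAPBPL, ERAP1, ERAP2 and PDCD1LG2 are the 11. With a library left out, the number of members called higher ran from 8 to 11, against 13 in the main fit. Over all genes the number ran from 2599 to 3100, against 3325. Both groups use replicate numbers 1 to 3. Same-numbered libraries had correlations of -0.149, -0.183 and 0.0655 between their departures from the group mean, and other pairs ran from -0.0758 to 0.204. With so few libraries per group, these values cannot decide whether same-numbered libraries were paired. With the replicate block 12 members were called, 8 higher and 4 lower. That fit has fewer residual degrees of freedom, and over all genes tested it also made fewer higher and fewer lower calls than the main fit. After GC and length correction 23 members were called, 18 higher and 5 lower. The added ones were HLA-E, HLA-F, HLA-G, PSMB8, PSME1 and, lower, CD47 (-0.12). Over all genes, with fewer tested, that correction also gave more higher calls than the main fit, but slightly fewer lower ones. The cause was not tested. Members without a call changed sign as follows. CD47 was 0.016 with library totals, 0.033 under quantile normalization, 0.031 thinned and 0.024 with totals without the 10 most abundant genes, and between -0.013 and 0.0081 when any one library was dropped. CD274 was 0.086 thinned. With a library left out CD274 ran from -0.13 to 0.047, CIITA from -0.36 to 0.28 and ULBP1 from -0.15 to 0.064. Depth limits HLA-DMA, HLA-DMB, HLA-DPB1 and CIITA, and CD74 and 6 class II chains were too low to test.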
